A study of Homo sapiens with 8 samples.

Results

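RBBP4 chromatin immunoprecipitation was compared between cells in which CSNK2B was targeted by small interfering RNA (siRNA) and cells that received a non-targeting siRNA. All 35154 regions in the deposited RBBP4 table were taken, out of 55650 regions in the tables for RBBP4 and P300 together. The cells were NCI-H69, a long-established line grown from human small cell lung cancer. They were transfected with either siRNA in Lipofectamine RNAiMAX, kept for 48 h, and fixed in 1% formaldehyde for 10 min. Chromatin was precipitated with an anti-RBBP4 antibody and sequenced as paired 150 bp reads, with 1 library per arm among the 8 libraries of the series. The 4 input libraries were not used here, and neither CSNK2B mRNA nor its protein was measured, so how far the siRNA lowered its target is not known from these data. The knockdown and control columns are told apart by their initials, S and C, and by the words Sample and Control in the region identifiers, not by the name of the siRNA, and a swap would turn every direction given below.

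RBBP4 is a WD-repeat protein that holds histones H3 and H4. It is a shared subunit of the NuRD and SIN3 deacetylase complexes, of Polycomb repressive complex 2 (PRC2), of the chromatin assembly factor CAF-1, of the NURF remodeler and of MuvB, the core of the DREAM complex that controls cell cycle genes. CSNK2B encodes the regulatory beta subunit of casein kinase 2 (CK2), a kinase with many nuclear substrates, and small cell lung cancer is a fast-dividing tumor with neuroendocrine features.

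The values were RPKM, reads scaled to the width of the region and to a total for the library. With 1 library per arm no difference has a replicate check and no test of the conditions can be made, so every comparison is a description of these 2 libraries. The log2 ratio of a region is log2((knockdown RPKM + 1)/(control RPKM + 1)), a scale that understates the ratio of low regions, and "higher" or "lower" means at least 2-fold on it. RPKM multiplied by width returned whole reads, within 0.01 of a read, for 34558 regions (98.3%). Folds of single regions are ratios of these reads, each scaled to the total implied for its library. The exact binomial 95% interval of a fold covers counting error only and takes reads as independent molecules. The totals implied by the RPKM scaling were 1207945 reads for the knockdown and 833181 for the control library, and the listed regions held 61.7% and 32.5% of them. These may be totals over a set of regions rather than over all reads, so they are not shown to be the sequencing depth. The median region held 14 reads in the knockdown library and 6 in the control library. Where reads are given as a pair, the knockdown comes first, and intervals stand in parentheses after folds.

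The table lists regions that differ between the arms, and the authors' criterion was not used here. The arm named in a region's identifier was the one with the higher value in 35151 of 35154 regions. A gene without a listed region is therefore not shown to lack RBBP4 or to be alike in both arms, and shares of higher and lower regions describe the list, not all RBBP4 sites. Scaling bears on the size of every ratio. With reads left unscaled, the median log2 ratio moved up by 0.51, the smallest ratio on the higher side was 0.93, and the smallest on the lower side was -1.02. With the deposited RPKM, ratios on the higher side began at 0.41 and lower regions began at -1.53.

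To let the results be read against sequence, the promoter windows of 8 genes are printed below, 250 bases before to 50 after the start, from RefSeq on GRCh38.p14. RBBP4 and EZH2 encode subunits of RBBP4 complexes. MCM7, CDK1, HMMR, NUSAP1 and SMC4 encode proteins of DNA replication, mitosis and chromosome condensation. DEFB131A, a beta-defensin gene, is shown as a promoter under a lower region. Each window is 5′ to 3′ along the gene, and capitals mark letter matches on either strand: the CCAAT box (CCAAT), the GC box (GGGCGG), the E-box (CACGTG), the TATA box (TATAAA), the cell cycle homology region or CHR (TTTGAA), and 2 E2F motifs (TTTCGCGC and TTTGGCGC). Matches to different motifs may overlap, as in MCM7, where an E2F match runs into a CCAAT box. Only the motifs named for a gene after its coordinates are in capitals.
RBBP4, chr1:32650958-32651257, plus strand, CCAAT box, GC box and E-box: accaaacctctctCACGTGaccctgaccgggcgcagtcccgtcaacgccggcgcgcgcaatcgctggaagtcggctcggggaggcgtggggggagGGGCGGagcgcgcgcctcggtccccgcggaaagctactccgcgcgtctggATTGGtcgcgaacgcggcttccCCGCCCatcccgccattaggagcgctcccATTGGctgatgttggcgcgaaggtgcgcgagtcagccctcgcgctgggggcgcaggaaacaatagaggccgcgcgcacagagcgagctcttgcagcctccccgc
EZH2, chr7:148884242-148884541, minus strand, CCAAT box, GC box and second E2F motif: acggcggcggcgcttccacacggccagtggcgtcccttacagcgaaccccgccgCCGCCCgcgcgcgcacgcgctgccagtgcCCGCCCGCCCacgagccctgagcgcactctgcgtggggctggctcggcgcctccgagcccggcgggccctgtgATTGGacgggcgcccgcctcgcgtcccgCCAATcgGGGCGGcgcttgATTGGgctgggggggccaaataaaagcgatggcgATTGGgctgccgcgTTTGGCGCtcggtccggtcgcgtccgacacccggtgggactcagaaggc
MCM7, chr7:100101348-100101647, minus strand, CCAAT box, GC box and first E2F motif: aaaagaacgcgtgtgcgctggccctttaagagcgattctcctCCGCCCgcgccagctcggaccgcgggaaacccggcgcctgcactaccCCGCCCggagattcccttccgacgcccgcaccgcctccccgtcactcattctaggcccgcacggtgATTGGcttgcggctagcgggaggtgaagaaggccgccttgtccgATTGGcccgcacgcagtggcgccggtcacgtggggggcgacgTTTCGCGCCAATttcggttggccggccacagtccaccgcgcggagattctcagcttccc
CDK1, chr10:60778081-60778380, plus strand, CHR, CCAAT box, GC box and first E2F motif: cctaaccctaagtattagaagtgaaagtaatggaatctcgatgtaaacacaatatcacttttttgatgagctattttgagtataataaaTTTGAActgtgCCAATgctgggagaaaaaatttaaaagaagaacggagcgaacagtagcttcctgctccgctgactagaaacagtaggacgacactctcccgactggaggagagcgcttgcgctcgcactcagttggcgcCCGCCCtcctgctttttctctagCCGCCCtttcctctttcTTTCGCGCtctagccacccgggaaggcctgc
HMMR, chr5:163460382-163460681, plus strand, CHR, CCAAT box and GC box: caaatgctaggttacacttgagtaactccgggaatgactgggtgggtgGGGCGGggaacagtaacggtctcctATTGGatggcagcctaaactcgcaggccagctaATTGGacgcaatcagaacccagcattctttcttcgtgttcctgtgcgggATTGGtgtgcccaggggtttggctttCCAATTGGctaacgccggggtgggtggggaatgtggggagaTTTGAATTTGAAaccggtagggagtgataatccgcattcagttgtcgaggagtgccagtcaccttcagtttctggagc
NUSAP1, chr15:41332631-41332930, plus strand, CHR, CCAAT box, TATA box and second E2F motif: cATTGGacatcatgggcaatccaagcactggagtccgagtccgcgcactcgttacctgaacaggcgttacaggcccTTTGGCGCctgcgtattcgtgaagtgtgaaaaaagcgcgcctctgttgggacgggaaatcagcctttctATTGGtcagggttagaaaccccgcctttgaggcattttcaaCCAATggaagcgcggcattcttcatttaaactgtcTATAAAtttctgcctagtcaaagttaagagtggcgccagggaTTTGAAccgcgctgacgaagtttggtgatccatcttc
SMC4, chr3:160399400-160399699, plus strand, CHR: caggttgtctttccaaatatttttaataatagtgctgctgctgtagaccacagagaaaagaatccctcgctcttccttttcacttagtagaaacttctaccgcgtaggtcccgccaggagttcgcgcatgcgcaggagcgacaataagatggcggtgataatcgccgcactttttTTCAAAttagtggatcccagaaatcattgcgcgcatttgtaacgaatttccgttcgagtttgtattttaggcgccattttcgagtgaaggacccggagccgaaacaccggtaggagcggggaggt
DEFB131A, chr4:9444164-9444463, plus strand, TATA box: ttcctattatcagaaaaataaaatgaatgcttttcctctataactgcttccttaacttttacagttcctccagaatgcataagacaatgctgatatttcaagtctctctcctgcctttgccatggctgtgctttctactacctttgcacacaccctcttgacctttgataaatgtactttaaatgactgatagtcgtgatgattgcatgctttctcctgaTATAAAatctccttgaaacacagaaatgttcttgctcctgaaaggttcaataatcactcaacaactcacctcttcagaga

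Most listed regions had more RBBP4 after CSNK2B siRNA. Of 35154 regions, 22820 (64.9%) were at least 2-fold higher, 10974 (31.2%) at least 2-fold lower and 1360 under 2-fold. The median log2 ratio was 1.49. The balance depends on the threshold. Lower regions had log2 ratios of at least 1.53 in size, past the 2-fold threshold, while ratios on the higher side began below it. The 2-fold counts are therefore not like for like. At 4-fold, 10344 regions were higher and 10494 lower. The balance also depends on depth. Among regions of at least 20 reads 13777 were higher and 1580 lower, whereas among those of up to 14 reads 4592 were higher and 5945 lower. Of 1003 regions with 100 reads or more, 920 were higher and 3 lower.

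Higher regions were wider and held more reads than lower ones. The median higher region was 467 bp wide with 20 and 3 reads, and the median lower region 371 bp wide with 2 and 12 reads. Of 256 regions over 2000 bp, 248 were higher and none was lower. Of 2582 regions over 1000 and up to 2000 bp, 2363 were higher and 68 lower. No read was counted in the control library for 1192 higher regions (5.22%), and none in the knockdown library for 956 lower regions (8.71%). With 0 reads a library allows up to 3 reads, so the folds of these regions have only a lower bound. Near the threshold, 795 regions lay just inside it (log2 ratio 1 to 1.1) and 511 just outside (0.9 to 1) on the higher side. On the lower side no region lay in either range.

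**Figure D1:**
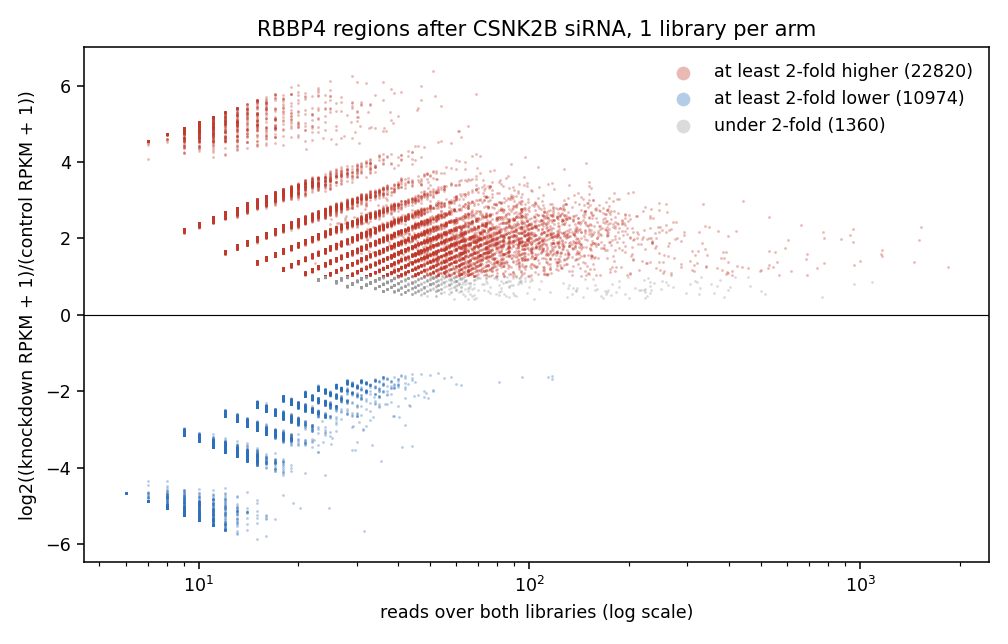
Each point is 1 of the 35154 RBBP4 regions, with its reads over both libraries (log axis) against its log2 ratio of knockdown to control RPKM with a pseudocount of 1, red and blue at least 2-fold higher and lower. The bands come from whole reads in the lesser library, the 956 and 1192 regions with 0 reads in one library form the outermost groups, and all but 3 of the 1003 regions of 100 reads or more lie above 0.

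Where the regions lay relative to genes went with their direction. Each region was put in the first class it met: within 3000 bp of the start of a protein-coding gene, within 3000 bp of the far end, inside a protein-coding gene, over a long noncoding RNA (lncRNA) gene only, or between genes. RefSeq gave a start for 15842 of 20056 protein-coding genes, and for the other 4214 either end was counted as a start. At gene starts, 6622 of 7202 regions were higher (91.9%) and 274 lower (3.8%). Inside genes 62.6% of 12161 regions were higher and 33.3% lower. Between genes 52.5% of 10920 were higher and 44.3% lower. Far gene ends, with 64.0% higher and 31.5% lower, were close to the values inside genes.

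Seen from the other side, 29% of higher regions (28.4% to 29.6%) and 2.50% of lower regions (2.21% to 2.81%) lay at a gene start. The gap depended on depth: in each range of read number up to 49 reads gene starts had the highest share of higher regions of the 5 classes and the space between genes the lowest, but this order did not hold in deeper regions. Among regions of 20 to 29 reads, 93.7% of those at starts and 63.2% of those between genes were higher, and 1.04% and 30.6% were lower. Among regions of 30 to 49 reads 0.293% of those at starts and 7.68% of those between genes were lower. At 50 to 99 reads the higher shares were 93.6% and 92.8%, and at 100 reads or more 88.6% at starts and 93.6% between genes.

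**Figure D2:**
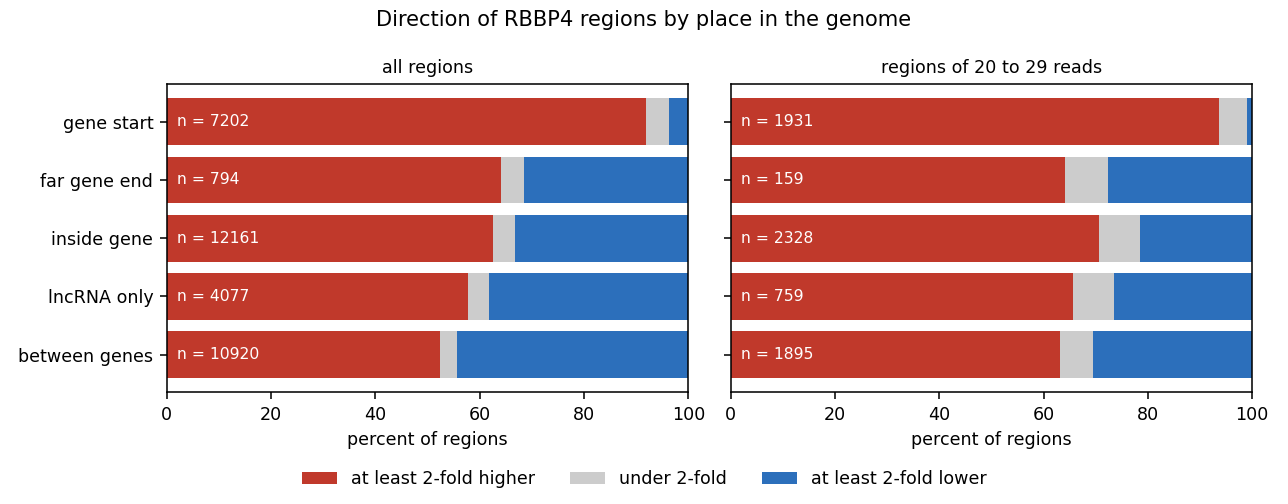
Bars give the percent of RBBP4 regions in each class of genome position that were at least 2-fold higher (red), under 2-fold (grey) or at least 2-fold lower (blue) after knockdown, for all regions (left) and for regions of 20 to 29 reads (right). Gene starts have the largest red share in both panels, 91.9% and 93.7%.

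Higher regions were centred on the start itself. Of 5832 higher regions whose centre lay within 5 kb of a start given by RefSeq, 3580 (61.4%) lay within 500 bp. Of 313 lower regions within 5 kb, 12 (3.83%) did. Within 1 kb, 2495 higher regions were centred upstream of the start and 1854 downstream, with a median of 39.5 bp upstream. Lower regions were split 12 and 14.

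**Figure D3:**
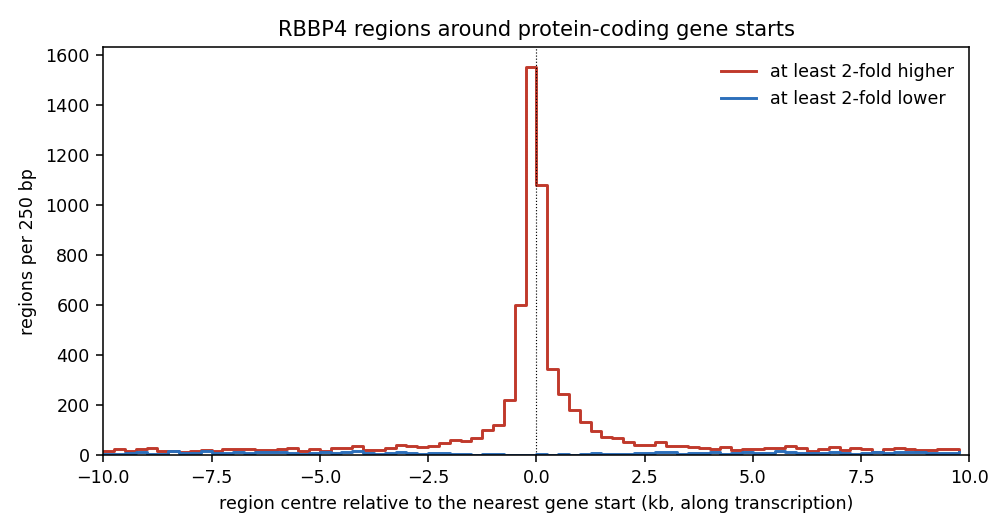
Lines give the number of regions per 250 bp by the distance of the region's centre from the nearest start of a protein-coding gene, negative upstream, for regions at least 2-fold higher (red) and lower (blue). Higher regions peak at the start, where 3580 lie within 500 bp, and lower regions show no such peak.

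Counted over 20056 protein-coding genes, the start was higher in 6566 (32.7%) and lower in 281 (1.40%). Inside the gene span, 7789 genes (38.8%) had a higher region and 2755 (13.7%) a lower one. These 4 shares are the background for the gene lists below. Among lncRNA genes, 1809 of 11461 starts (15.8%) were higher and 211 (1.84%) lower, and away from protein-coding starts these counts were 719 and 183.

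The promoters under higher regions were rich in CpG. Of 15840 promoter windows, 3957 (25.0%) were overlapped by a higher region and 8 (0.0505%) by a lower one. The median observed-to-expected CpG ratio was 0.876 in the first set and 0.763 over all windows, and the median GC content was 65.0% and 62.7%. The share of windows with a higher region was 1.71% where the CpG ratio was up to 0.2, 3.04% from 0.2 to 0.4, 12.5% from 0.4 to 0.6, 29.3% from 0.6 to 0.8 and 38.3% above 0.8. CpG-rich promoters are typical of housekeeping and developmental genes. Sequencing libraries can also favor or disfavor GC-rich fragments, and the part of that in these shares was not tested.

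The 135 windows under listed regions of less than 2-fold had values close to or above those of windows under higher regions, with a median CpG ratio of 0.884, an ETS motif (CCGGAA) in 43.7% and a GC box in 73.3%.

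Motif content was also compared among CpG-rich windows, those with a ratio over 0.6. The ETS motif was in 36.9% of windows under higher regions against 22.8% of all, and in 38.5% against 30.9% of the CpG-rich ones. The GC box went from 72.3% against 58.5% to 74.3% against 77.4%, so its excess was not there once CpG content was held. The E-box was in 12.2% against 8.88% of windows, the CRE (TGACGTCA) in 4.27% against 2.59%, and the first and second E2F motifs in 1.57% against 0.814% and 1.44% against 0.890%. The excesses of the E-box, the CRE and both E2F motifs were smaller among CpG-rich windows, with the E-box at 12.5% against 10.8%. The CCAAT box was at 37.4% against 36.4%. The CHR was at 10.6% against 12.1% (9.94% against 8.09% among CpG-rich windows, the opposite order). The TATA box was at 5.13% against 9.63%. Among CpG-rich windows it was at 4.56% against 4.90%, so most of its deficit was not there once CpG content was held. These are letter matches and do not show that a factor was bound.

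The 8 windows under lower regions belonged to LCE2B, DEFB131A, MMRN1, PTGS1, OR10A5, ANO3, OR6C74 and PRSS54. Their median CpG ratio was 0.163, and 62.5% of them held a TATA box. The region over the DEFB131A window had 1 and 10 reads. The windows of RBBP4, EZH2 and MCM7, all with a CpG ratio above 1, lay under regions of 23 and 1, 31 and 3, and 112 and 17 reads.

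**Figure D4:**
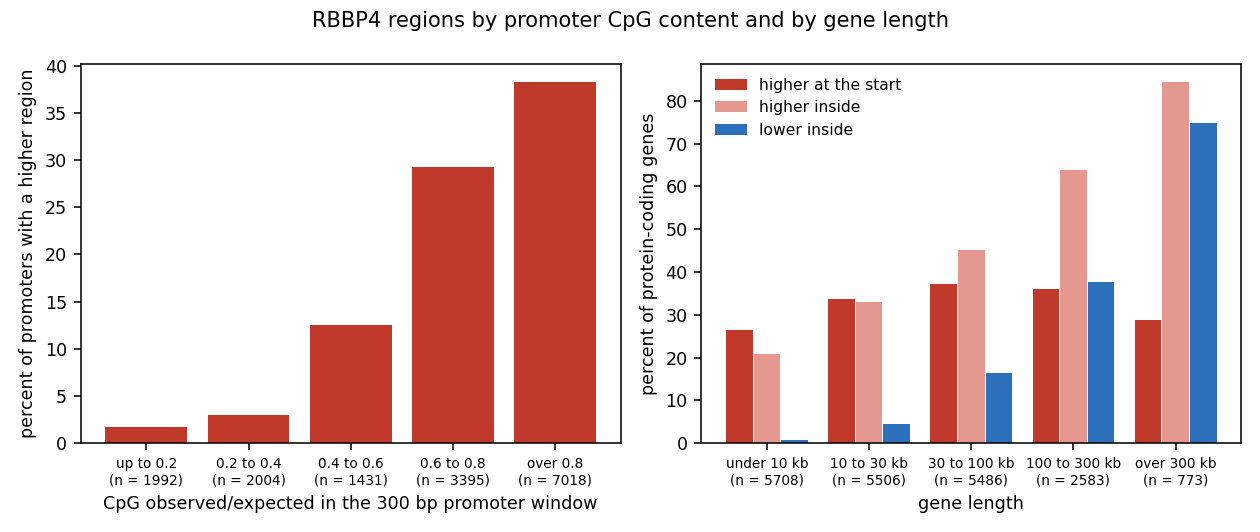
Left, the percent of 15840 promoter windows overlapped by an RBBP4 region at least 2-fold higher after knockdown, by observed-to-expected CpG ratio of the window, from 1.71% in the lowest bin to 38.3% in the highest. Right, the percent of protein-coding genes with a higher region at the start, a higher region inside and a lower region inside, by gene length, where lower regions inside reach 74.9% of genes over 300 kb.

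The genes of complexes that contain RBBP4 were covered to different degrees. Members with a higher region at the start were 9 of 15 for NuRD, 9 of 14 for SIN3, 3 of 4 for NURF, 5 of 10 for PRC2, 6 of 15 for MuvB and DREAM and 0 of 4 for CAF-1 and its partner ASF1, against 32.7% of all protein-coding genes. The MuvB and DREAM share fell under that of all genes at 4-fold, with 2 of 15 against 3599 of 20056, and within 1000 bp, with 4 of 15 against 5910 of 20056. A higher region overlapped the promoter window itself in 5 of 14 NuRD, 3 of 13 SIN3, 1 of 3 NURF and 3 of 9 PRC2 genes. It did so in 0 of 12 MuvB and DREAM and 0 of 4 CAF-1 and ASF1 genes, against 25.0% of all windows. CHD3 and CHD4, the remodeling ATPases of NuRD, had 35 and 3 and 28 and 4 reads, or 8.05-fold (2.54 to 40.9) and 4.83-fold (1.69 to 18.9) higher. The CHD4 region lay 2351 bp from the start. At GATAD2B, another NuRD subunit, the start had 26 and 4 reads. SAP30, a SIN3 subunit, had 40 and 7 reads and was 3.94-fold (1.75 to 10.4) higher. SMARCA1, the ATPase of NURF, had 17 and 3 reads, 3.91-fold (1.13 to 20.8) higher. Reads are few and intervals wide for these genes, and at BRMS1 and BPTF, with 23 and 7 and 14 and 3 reads, the interval of the fold included 1. A lower region lay inside 3 of 15 NuRD and 4 of 14 SIN3 genes, against 13.7% of all protein-coding genes. In NuRD, GATAD2A and MTA3 had 2 and 13 and 2 and 12 reads there. In SIN3, ARID4A and ARID4B had 2 and 15 and 4 and 18. ARID4B also had a higher start, with 57 and 6 reads.

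In PRC2, the complex that methylates histone H3 lysine 27, the start of the catalytic subunit gene EZH2 had 31 and 3 reads and was 7.13-fold (2.22 to 36.4) higher. Its paralog EZH1 had 27 and 10 reads, with a fold of 1.86-fold (0.874 to 4.31) that included 1. The accessory subunit gene MTF2 had 2 regions in opposite directions. Its start had 30 and 7 reads, 2.96-fold (1.27 to 7.97) higher, and a region inside the gene had 1 and 12 reads, 17.4-fold (2.57 to 744) lower. JARID2, another accessory subunit, likewise had RPKM of 34.5 and 11.4 at the start and 3 and 14 reads, 6.77-fold (1.89 to 36.7) lower, at a region inside. The JARID2 region counted at the start lay 2642 bp from it. Of 10 PRC2 genes, 3 had a lower region inside.

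In the PRC1 list, 9 of 16 genes had a higher start. PCGF1, a subunit of variant PRC1 complexes, had 48 and 11 reads, 3.01-fold (1.54 to 6.43) higher. RNF2, the main ubiquitin ligase of PRC1, had a lower region inside with 6 and 20 reads, 4.83-fold (1.87 to 14.7) lower. Among MuvB and DREAM genes LIN9 and LIN37, 2 MuvB subunits, had 26 and 6 and 20 and 4 reads at the start, and the mitotic transcription factor gene FOXM1 had 34 and 8, 2.93-fold (1.33 to 7.33) higher. The LIN37 region lay 2937 bp from the start. LIN52, the MuvB subunit phosphorylated to form DREAM, had no higher start, and a region inside it had 7 and 19 reads, 3.94-fold (1.58 to 11.1) lower. No CK2 subunit gene had a higher start, CSNK2B included. The 1 start with a listed region was that of CSNK2A3, an intronless copy of the catalytic subunit gene, with 1 and 8 reads, and 1 CK2 gene had a higher region inside its span. Reads at CSNK2A3 may be split with CSNK2A1.

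Other chromatin regulators were listed often. Among histone methyltransferase and demethylase genes 34 of 48 had a higher start, with a median log2 ratio of 2.4 over the starts with a region, against 1.92 over all genes. KDM3A, a histone H3 lysine 9 demethylase, had 82 and 4 reads, 14.1-fold (5.32 to 53.1) higher. KMT2D and KMT2B, lysine 4 methyltransferases, had 49 and 8 and 45 and 8 reads, 4.22-fold (1.98 to 10.3) and 3.88-fold (1.81 to 9.53) higher. In the same list 12 genes had a lower region inside. The methyltransferase gene KMT2C was one, with 6 and 19 reads, 4.59-fold (1.76 to 14) lower. In the SWI/SNF list 12 of 19 genes had a higher start and none a lower region. SMARCA2, an ATPase of that remodeler, had 66 and 3 reads, 15.2-fold (4.97 to 75.5) higher. Of 10 DNA methylation genes 6 had a higher start. DNMT1, the maintenance methyltransferase, had 74 and 11 reads, 4.64-fold (2.45 to 9.70) higher, and its partner UHRF1 had 47 and 11, 2.95-fold (1.51 to 6.30) higher.

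G2/M genes with CHR promoters, which MuvB complexes bind, had a higher start in 28 of 31 cases and a lower one in none, the largest share of any list of 10 or more genes at 2-fold. At 4-fold it was not the largest: 12 of 31 were higher, against 10 of 19 cohesin, condensin and CTCF genes and 15 of 29 immediate early genes. The median log2 ratio of the G2/M starts with a region was 1.83, below the 1.92 of all genes. CCNB1, RACGAP1 and KIF23 had no listed region there. HMMR, a spindle protein gene, had 95 and 18 reads, 3.64-fold (2.18 to 6.40) higher. KIF20A, a cytokinesis kinesin, had 79 and 16 reads, 3.41-fold (1.97 to 6.25) higher. BIRC5, which encodes survivin, had 57 and 14, 2.81-fold (1.54 to 5.46) higher, and the spindle gene NUSAP1 had 60 and 8, 5.17-fold (2.46 to 12.5) higher. CDK1, the mitotic kinase, had 52 and 13, 2.76-fold (1.48 to 5.52) higher. All 5 intervals lay above 1, but listed regions differ between the arms by selection, so this adds no support. The list was drawn up for genes of this promoter type, and 16 of its 25 members with a window held the CHR, against 12.1% of all windows, while 21 held a CCAAT box and 22 windows were under a higher region. The windows of HMMR, NUSAP1 and CDK1 printed above hold both motifs. Of the 31 genes, 3 had a lower region inside as well, among them KIF11, the spindle motor gene, with 2 and 14 reads, 10.1-fold (2.33 to 92.0) lower, and the checkpoint kinase gene TTK, with 1 and 9 reads, 13.0-fold (1.81 to 572) lower.

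G1/S genes of the E2F group had a higher start in 20 of 31 cases and a lower one in 1. MCM7, a subunit of the replicative helicase, had 112 and 17 reads, 4.54-fold (2.71 to 8.08) higher. RRM2, a subunit of ribonucleotide reductase, had 93 and 22, 2.92-fold (1.82 to 4.88) higher. The checkpoint kinase gene CHEK1 had 52 and 10 reads, 3.59-fold (1.80 to 7.92) higher, and CDC45, a helicase cofactor, had 48 and 12, 2.76-fold (1.44 to 5.71) higher. The lower region was near RPA2, a subunit of the single-strand binding protein, with 3 and 13 reads, 6.28-fold (1.73 to 34.4) lower. RPA2 also had a higher region at its start. No listed region lay at the starts of MCM2, MCM4, E2F1 or POLA1.

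Among cohesin, condensin and CTCF genes 16 of 19 had a higher start. SMC4 and SMC2, the paired ATPases of condensin, had 68 and 6 and 64 and 8 reads, 7.82-fold (3.41 to 22.0) and 5.52-fold (2.64 to 13.3) higher. STAG2, a cohesin subunit, had 47 and 9, 3.6-fold (1.75 to 8.36) higher. The 1 lower region at an end was at RAD21, the cohesin kleisin, where the other end was higher with 161 and 24 reads. RAD21 lies in a segment of the long arm of chromosome 8 that was left out in an alternative, whose 198 regions had a median of 230 reads against 19 elsewhere. NIPBL, the cohesin loader, had a lower region inside with 6 and 18 reads, 4.35-fold (1.65 to 13.4) lower. Replication-dependent histone genes, which lie in clusters and are near copies of each other, had a higher start in 47 of 69 cases and a lower one in 1. The linker histone gene H1-2 had 58 and 9 reads, 4.45-fold (2.19 to 10.2) higher, and H2AC6 had 57 and 5, 7.86-fold (3.18 to 25.1) higher. One region can serve several of these genes, as at H1-5 and H2AC16, which shared 62 and 11 reads, and reads may be split between copies.

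Immediate early genes, which serum, stress and growth factors induce within minutes, had a higher start in 21 of 29 cases and none a lower one. JUNB had 171 and 33 reads, 3.57-fold (2.45 to 5.36) higher. FOS had 100 and 10, 6.90-fold (3.6 to 14.8) higher. JUN had 92 and 4, 15.9-fold (5.99 to 59.5) higher, the largest fold of the 3 AP-1 subunit genes with whole reads, though its interval overlapped that of FOS. NR4A3, a nuclear receptor of the group, had a lower region inside with 4 and 16 reads, 5.80-fold (1.87 to 23.8) lower. In the circadian list 13 of 20 had a higher start. BHLHE40, a repressor of the clock, had 81 and 9 reads, 6.21-fold (3.11 to 14.1) higher. RORB had 55 and 9 reads at the start, 4.22-fold (2.07 to 9.70) higher, and 7 and 21 inside, 4.35-fold (1.78 to 12.1) lower. In the unfolded protein and integrated stress response list 13 of 20 had a higher start. ATF6, a sensor of the endoplasmic reticulum, had 68 and 3, 15.6-fold (5.13 to 77.7) higher, and the chaperone gene CALR had 102 and 22, 3.20-fold (2 to 5.33) higher. The kinase genes EIF2AK3 and EIF2AK4 of the same list had lower regions inside, with 1 and 8 and 3 and 14 reads.

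Gene families of basic cell functions had a higher start more often than the 32.7% of all genes. These were 24 of 32 RNA polymerase subunit genes, 16 of 22 nuclear pore genes, 27 of 38 SR protein and hnRNP genes, 33 of 48 exosome and ribosome biogenesis genes, 29 of 44 spliceosomal and small nucleolar protein genes, 23 of 39 proteasome genes, 43 of 77 mitochondrial and 45 of 82 cytosolic ribosomal protein genes, 18 of 34 aminoacyl-tRNA synthetase genes and 30 of 54 translation initiation factor genes. HNRNPA1, a pre-mRNA binding protein gene, had 81 and 6 reads, 9.31-fold (4.10 to 26.1) higher. LSM5, a subunit of the LSm ring, had 75 and 7, 7.39-fold (3.42 to 19) higher. POLR2B, the second largest subunit of RNA polymerase II, had 65 and 10, 4.48-fold (2.29 to 9.79) higher. RPL23A had 109 and 14, 5.37-fold (3.07 to 10.1) higher, and MRPL54 had 85 and 8, 7.33-fold (3.56 to 17.5) higher. EIF2S1 and ATP6V1D, a translation factor and a proton pump gene, shared a region of 51 and 6 reads, 5.86-fold (2.52 to 16.7) higher. In these 10 families 0 to 1 genes had a lower start. One was RPS27A, with 4 and 15 reads, 5.44-fold (1.73 to 22.5) lower.

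Signalling and lineage genes were split. In the TGF-beta and BMP list 15 of 26 genes had a higher start and none had a lower region. ID1, a target of BMP signals, had 69 and 15 reads, 3.17-fold (1.80 to 5.97) higher, and the inhibitory SMAD6 had 51 and 11, 3.20-fold (1.65 to 6.80) higher. WNT5A, a noncanonical WNT ligand, had 94 and 12, 5.40-fold (2.95 to 10.8) higher, among 13 of 29 WNT and Frizzled genes with a higher start. Of 21 promoter windows of that family, 1 was under a higher region, against 25.0% of all windows. In the Hedgehog list 7 of 14 had a higher start. GLI1, the transcription factor induced by the pathway, had 71 and 12, 4.08-fold (2.2 to 8.27) higher, while the inhibitor gene SUFU and the coreceptor gene CDON had lower regions inside, with 6 and 20 and 4 and 18 reads, 4.83-fold (1.87 to 14.7) and 6.52-fold (2.15 to 26.5) lower. Among nuclear receptors RARA, a retinoic acid receptor, had 122 and 13 reads at the start, 6.47-fold (3.65 to 12.5) higher. Its paralog RARB held 18 regions, 16 higher and 2 lower. A lower region inside it had 2 and 17 reads, 12.3-fold (2.93 to 110.0) lower. Of 30 nuclear receptor genes, 13 had a higher start, 21 a higher region inside and 10 a lower one inside. The share with a higher start fell under that of all genes at 4-fold, with 5 of 30 against 3599 of 20056. It did so too at or above the median mean RPKM, with 4 of 30 against 3059 of 20056. The median length of these genes was 96710.5 bp, against 24092.5 bp over all.

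NCI-H69 is known as a neuroendocrine line, but chromatin immunoprecipitation does not measure expression, so the cell type was not checked here. Of 34 neuroendocrine identity genes 5 had a higher start, against 15 of 25 genes of the non-neuroendocrine state and 3 of 24 markers of circulating and stromal cells. NCAM1, a surface marker of neuroendocrine tumors, had 34 and 3 reads, 7.82-fold (2.46 to 39.8) higher. ELAVL4, a neuronal RNA-binding protein gene, had 2 and 16 reads at a region inside, 11.6-fold (2.73 to 104) lower. No region was listed at the starts of INSM1, CHGA, SYP or DLL3. In the non-neuroendocrine list HES1, a Notch target, had 140 and 27 reads, 3.58-fold (2.36 to 5.62) higher, and VIM, the mesenchymal filament gene, had 89 and 8, 7.67-fold (3.73 to 18.3) higher. MET, a receptor kinase gene of the same list, had 2 and 11 reads inside, 7.97-fold (1.74 to 74.0) lower. The 3 stromal and circulating markers with a higher start included COL1A2 with 28 and 6 and APOA1 with 16 and 3 reads.

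Several families of genes read in few tissues had almost no higher starts. A higher start was found for 7 of 390 olfactory receptor genes, 1 of 94 keratin-associated protein genes, 1 of 39 beta-defensin genes, 1 of 42 chemokine genes, 0 of 28 taste receptor and 0 of 21 interferon genes. The lower starts of the same families were 10, 0, 3, 1, 1 and 0. Other such families had more, with a higher start for 11 of 55 cytochrome P450 and 4 of 45 interleukin genes. In olfactory receptors and beta-defensins lower starts thus outnumbered higher ones, though at 20 reads or more the olfactory counts were 3 higher and 2 lower, and within 1000 bp 4 and 3, and the beta-defensin counts were 1 and 0, and 1 and 1. The 3 lower starts of beta-defensin genes were at DEFB124, DEFB131A and DEFB115, with 2 and 10, 1 and 10 and 1 and 8 reads. Of 55 keratin genes 4 had a higher and 3 a lower start. KRT6B and KRT2, epidermal keratin genes with a lower one, had 1 and 11 and 1 and 10 reads, 15.9-fold (2.32 to 686) and 14.5-fold (2.06 to 629) lower. These families hold near-identical copies, between which reads may be split.

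**Figure D5:**
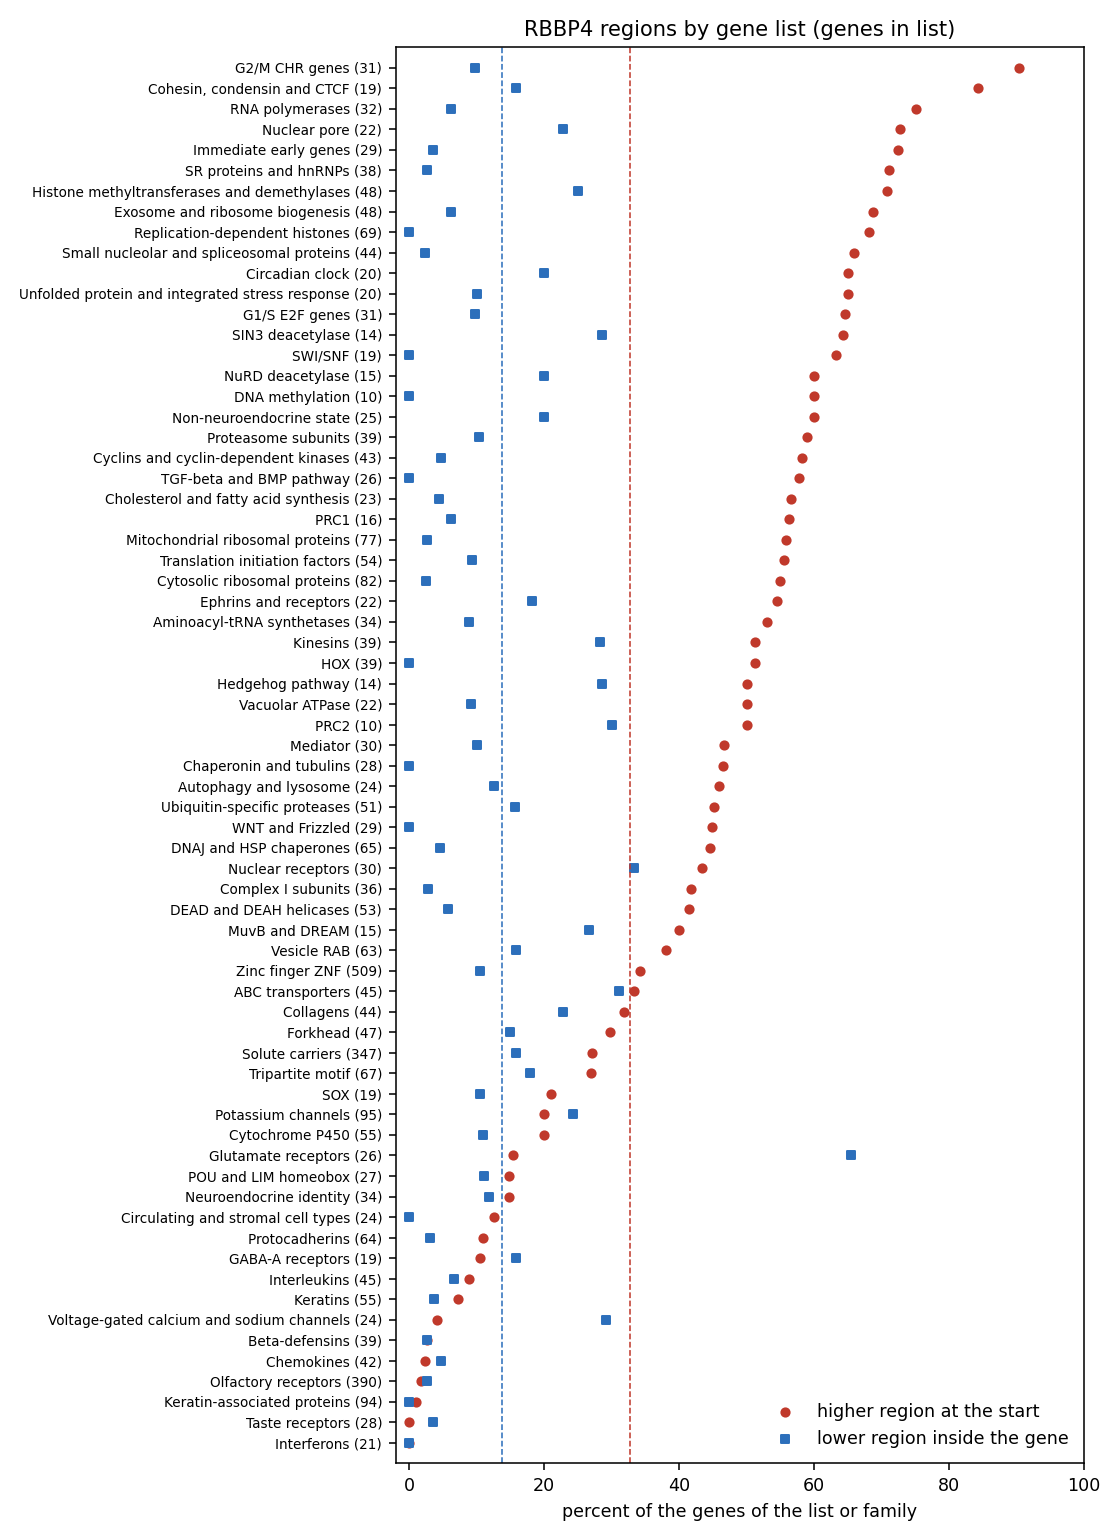
For each gene list or family of at least 10 genes, the red circle is the percent of genes with an RBBP4 region at least 2-fold higher at the start and the blue square the percent with a region at least 2-fold lower inside, with dashed lines at the values for all protein-coding genes (32.7% and 13.7%). G2/M genes are highest at the start, 28 of 31, and glutamate receptors are highest for lower regions inside, 17 of 26.

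Of the lower regions 44.1% lay between genes and 36.9% inside a protein-coding gene. The share of genes with a lower region inside went up with gene length. A lower region was inside 0.858% of genes under 10 kb, 4.49% of 10 to 30 kb, 16.5% of 30 to 100 kb, 37.7% of 100 to 300 kb and 74.9% of those over 300 kb. Higher regions inside went from 20.9% to 84.5% over the same bins, and higher starts from 26.4% to 28.7%, with 37.3% at 30 to 100 kb. Genes with lower regions only (1064) had a median length of 70631 bp, genes with higher regions only (6098) 32187.5 bp, and genes with both (1691) 177596 bp. Over all 20056 protein-coding genes 2755 (13.7%) had a lower region inside, and a similar share, 972, of the 6566 with a higher start did. Beside ARID4B, MTF2, JARID2 and RORB, both were found at FOXP2, a forkhead gene of neural development. FOXP2 had 57 and 11 reads at the start, 3.57-fold (1.86 to 7.56) higher, and 5 and 24 inside, 6.96-fold (2.60 to 23.4) lower. MRPL19 and the transporter gene ABCC11 had 47 and 11 and 37 and 10 reads at the start and 4 and 17 and 5 and 20 inside.

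Glutamate receptor genes had the largest share of lower regions inside among the lists and families of 10 or more genes. Of 26 glutamate receptor genes 17 had one, 16 had a higher region inside and 4 had a higher start. GRM8, a metabotropic receptor gene, had 7 and 23 reads, 4.76-fold (1.98 to 13.1) lower. GRIA4, an AMPA receptor gene, had 18 and 4 reads at its start, 3.10-fold (1.02 to 12.6) higher, and 6 and 17 inside, 4.11-fold (1.55 to 12.7) lower. Of 24 calcium and sodium channel genes 7 had a lower region inside and 10 a higher one. CACNA1A had 11 and 25 and SCN8A 10 and 24 reads at a lower region, 3.29-fold (1.56 to 7.42) and 3.48-fold (1.60 to 8.15) lower. Of 95 potassium channel genes 23 had a lower region inside, 29 a higher region inside and 19 a higher start. Lower regions inside were fewer in other families of neuronal membrane proteins, with 3 of 19 GABA-A receptor genes and 2 of 64 protocadherin genes. Of 45 ABC transporter genes 14 had one. Glutamate receptor genes had a median length of 315446 bp, and the part of gene length in their share was not tested.

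Some long genes held many regions, in some mostly higher and in others of both directions. Of all listed regions 64.9% were higher and 31.2% lower. HDAC9, a class IIa deacetylase gene, had 42 regions in its 915592 bp, 34 higher and 1 lower. AUTS2, a gene of neural development whose protein joins a variant PRC1, had 40 regions, 32 higher and 6 lower. PDE4D, a cAMP phosphodiesterase gene, had 39, 29 higher and 5 lower, and GSE1 had 23, 20 higher and 1 lower. CTNNA2, an alpha-catenin gene of neurons, had 23 regions, 9 higher and 11 lower, and the receptor phosphatase gene PTPRD had 26, 14 higher and 11 lower. These genes were named for their number of regions.

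The regions with the most reads outside the chromosome 8 segment that holds RAD21 were all higher. The region at the start of TNRC18, chr7:5421593-5429185, had 439 and 91 reads, 3.33-fold (2.65 to 4.22) higher. Between genes and nearest to HIBADH, chr7:27515771-27519451 had 476 and 53 reads, 6.19-fold (4.66 to 8.39) higher. Inside HDAC9, chr7:18844614-18847873 had 308 and 41 reads, 5.18-fold (3.73 to 7.36) higher. Inside DRC4, a gene of motile cilia, chr16:90031660-90034715 had 343 and 55 reads, 4.30-fold (3.23 to 5.83) higher. SKIDA1 had 269 and 74 at its start, 2.51-fold (1.93 to 3.29) higher, the smallest fold of the 15 with whole reads. Of these 15 regions 2 were at gene starts. The lower regions with the most reads outside that segment were nearest to TYRP1, chr9:12592105-12593658, with 17 and 45 reads, 3.84-fold (2.15 to 7.15) lower, and nearest to SPATA31A6, with 17 and 43, 3.67-fold (2.05 to 6.86) lower. Inside TSHZ3, a zinc finger gene of development, chr19:31197848-31199182 had 13 and 38 reads, 4.24-fold (2.21 to 8.67) lower.

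Direction also went with gene density along chromosomes. The higher share was 82.5% on chromosome 19, 79.2% on 22 and 77.9% on 17, the gene-rich chromosomes, and 58.8% on 18 and 58.9% on 9. It was 64.9% over all regions, 64.9% on chromosome 4 and 67.6% on X. In windows of 5 Mb with at least 30 regions, 54.3% of regions were higher where a window held up to 10 protein-coding genes and 82.0% where it held over 80. At gene starts 91.9% of regions were higher, and their part in these window shares was not tested. Between 160 and 165 Mb of chromosome 4, 41 of 57 regions were lower, and between 50 and 55 Mb of chromosome 7, 26 of 35. In the first 5 Mb of chromosome 19, 215 of 230 were higher. The P300 table shared 317 regions with the RBBP4 table by any overlap, 0.902% of the RBBP4 and 1.55% of the P300 regions.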

How the data were processed

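The authors deposited 1 table of RBBP4 regions with an RPKM value for the knockdown and for the control immunoprecipitated library, per the file headers. Per the submitters' processing notes, the tools included the peak caller MACS2 2.2.7.1, the aligner Bowtie2 2.4.5 and DiffBind 3.4.11, on the build GRCh38, with no settings stated there. The deposited fold changes and p-values were not used. From the RPKM, log2 ratios with a pseudocount of 1 and whole reads (tolerance 0.01) were computed in Python 3.11.15 with pandas 2.3.3, and on simulated reads for the 35154 regions all reads were recovered. The other 596 regions are given by RPKM only. Gene positions, starts and promoter windows came from RefSeq (GRCh38.p14), matched by symbol, with 15842 of 20056 protein-coding starts. Gene lists (24) and symbol families (47) are described by counts beside all protein-coding genes, with no test. The genes, lists and rules were chosen with earlier results of these data known. Named genes were, per list, up to 4 with the most reads at the start and up to 2 with the most reads in lower regions, the 15 deepest regions and the 15 deepest lower regions. Other names were chosen after their values were seen. Alternatives to the pseudocount, read filter, scaling, fold, distance and chromosome 8 segment are given at the end.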

Additional observations from a re-analysis of the deposited data

How the results depend on the processing

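No paired analysis was possible because each arm had 1 library. The counts of higher and lower regions were 22820 and 10974, and 13777 and 1580 at 20 reads or more, 12060 and 4451 at or above the median mean RPKM, and 10344 higher at 4-fold. Of the regions past the threshold, 67.5% were higher, and 89.7%, 73.0% and 49.6% in the same order, or 68.8% with unscaled reads. The median log2 ratio of 1.49 was 1.57 with a pseudocount of 0.1, 1.53 with 0.5, 1.66 at 20 reads or more, 1.47 at or above the median RPKM and 1.999 unscaled. The share of higher regions at a gene end, 29%, was 30.2% at 20 reads or more, 23.8% at or above the median RPKM, 31.6% at 4-fold, 24.4% within 1000 bp, 30.7% with either end for every gene and 23.8% with known starts only. For lower regions 2.50% became 1.71% at 20 reads or more, 0.620% within 1000 bp, 4.79% with either end and 1.48% with known starts only. Genes with a higher end, 6566, were 3059 at or above the median RPKM and 3599 at 4-fold, and tRNA genes with a higher region, 172, were 101 and 85. Without the chromosome 8 segment every one of these values moved by less than its interval or 1.5 times. Either end, known starts only and the tRNA results were added after seeing the data. Of 390 named regions, 9 moved outside their interval with unscaled reads and 381 did not. Their direction was not open to these changes. Another pseudocount keeps the sign of a ratio, and unscaled ratios in the list began at 0.93 on the higher and -1.02 on the lower side. A median region held 19 reads over both libraries, which limits the precision of its ratio.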

Other observations

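Genes read by RNA polymerase III were also among the higher regions, a set looked at only after its values were seen. Of 443 nuclear tRNA genes, 172 (38.8%) had a higher region within 500 bp and none a lower one. These came from 147 regions, 142 higher and 5 under 2-fold, with a median of 28 and 5 reads and a median log2 ratio of 1.90. Of all listed regions 64.9% were higher and 31.2% lower. Among listed regions of 30 to 49 reads these shares were 85.4% and 3.96%. Of the 147 regions, 99 lay away from the starts of protein-coding genes, and 96 of these were higher. Of all 147, 109 lay over a tRNA gene itself. By isotype, 17 of 26 serine, 13 of 20 proline and 16 of 26 arginine genes had a higher region, against 5 of 33 alanine, 3 of 19 glutamine and 5 of 29 cysteine genes. A valine gene, TRV-AAC1-4 on chromosome 5, had 119 and 18 reads, 4.56-fold (2.76 to 7.96) higher. TRT-TGT6-1, a threonine gene on the same chromosome, had 71 and 5 reads, 9.79-fold (4.01 to 31.1) higher. Of 155 tRNA genes on chromosome 6, 37 had a region, and of 33 on chromosome 17, 29. tRNA genes are near copies of each other, and reads may be split between them.

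Other small RNA genes were looked at in the same way. The 4 Y RNA genes, which lie together on chromosome 7, were all higher: RNY3 had 81 and 22 reads, 2.54-fold (1.57 to 4.27) higher, RNY1 had 44 and 7, RNY5 had 31 and 5, and RNY4 had 27 and 1. RN7SL1 and RN7SL2, the RNA genes of the signal recognition particle, had 84 and 20, and 85 and 26 reads, 2.90-fold (1.76 to 4.98) and 2.25-fold (1.44 to 3.65) higher. The U6 gene RNU6-2 had 58 and 3 reads, 13.3-fold (4.34 to 66.5) higher. RNU6-8 had 17 and 0, with 2.85-fold as the lower end of the interval. With the control library set to a floor of 3 reads, its ratio was 3.91-fold. RN7SK, whose RNA holds back the elongation factor P-TEFb, had 50 and 18 reads, 1.92-fold (1.1 to 3.49). RPPH1, the RNA gene of RNase P, had no listed region. Of 156 snRNA genes 24 had a higher and 0 a lower region. U5 genes, which RNA polymerase II reads, were included: RNU5B-1 and RNU5E-1 each had 93 and 12 reads, 5.35-fold (2.92 to 10.7) higher. Of 1913 miRNA genes, 93 had a higher region within 500 bp and 6 a lower one.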
